A study of Homo sapiens with 21 samples.

Results

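A group of 10 genes of the non-collagen extracellular matrix was followed through 7 lines derived from SUM149PT. SUM149PT is a cell line from an inflammatory breast cancer, labelled negative for the estrogen and progesterone receptors. The genes were fibronectin (FN1), tenascin C (TNC), fibulin 1 (FBLN1), ABI3BP, MXRA5, decorin (DCN), biglycan (BGN), lumican (LUM), versican (VCAN) and periostin (POSTN). The 10 were chosen as a list of symbols, not by a threshold on a measured value, and found by Ensembl identifier among the 60617 genes of the tables. Earlier results of these data were known when the genes were chosen, so the counts of calls among them are not independent of the data. The lines were the clones M2, M1, EM3, EM2, EM1 and E and the uncloned line they came from (Parental), all untreated, with 3 messenger RNA libraries each and 21 in all. Each of the 6 clones is a single clone, so a difference between clones cannot be told apart from the differences that any pair of clones may show. The series title concerns an intermediate state of the epithelial-mesenchymal transition, and the labels do not spell out the clone letters.

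Matrix glycoproteins and proteoglycans are secreted proteins that fill the space between and beneath cells. Fibronectin assembles into fibrils that integrins bind, tenascin C and periostin modulate adhesion to such fibrils, and fibulins bridge them to elastic and basement membrane fibres. Decorin, biglycan and lumican are small proteoglycans built from leucine-rich repeats that bind collagen and growth factors, while versican is a large proteoglycan that binds hyaluronan. In breast tissue these proteins are known mostly as products of stromal fibroblasts, and several of them, fibronectin above all, are used as markers of the mesenchymal state of carcinoma cells.

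Levels are given in TPM, transcript abundances that are corrected for transcript length and add up to the same total in every library, in the order of replicates 1 to 3, and fold changes as log2 ratios from counts. Library totals ran from 24602417 to 48149939 expected counts (estimated reads per gene, summed). The 18 clone libraries fell into a set with short and a set with long mean effective length, a split that the labels do not name. Short means, of 1751 to 1806 bases, were found in replicates 1, 2 and 3 of E and in replicate 3 of M2, M1, EM3, EM2 and EM1. The remaining 10 had means of 1880 to 1983 bases, and the Parental libraries 1825 to 1881 bases. Comparisons of a clone with E therefore set both sets against the short one.

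Clone M1 held the largest summed level of the 10 genes, and M2, the other M clone, made a different selection of them. Their summed level was 1045 ± 165 TPM in M2, 6566 ± 591 in M1, 769 ± 76.5 in EM3, 1140 ± 16.4 in EM2, 479 ± 164 in EM1, 568 ± 27.1 in E and 622 ± 245 in Parental (SD, n = 3 each). FN1 made up 57.2 to 93.9% of this sum in all 21 libraries. DCN supplied 28.0 to 33.9% of it in M1, against 0.541 to 1.73% in M2 and 7.24 to 8.59% in E. In M2 most of the remainder came from TNC, ABI3BP and FBLN1. In such bulk RNA, fewer cells of a kind and less RNA per cell cannot be told apart.

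**Figure D1:**
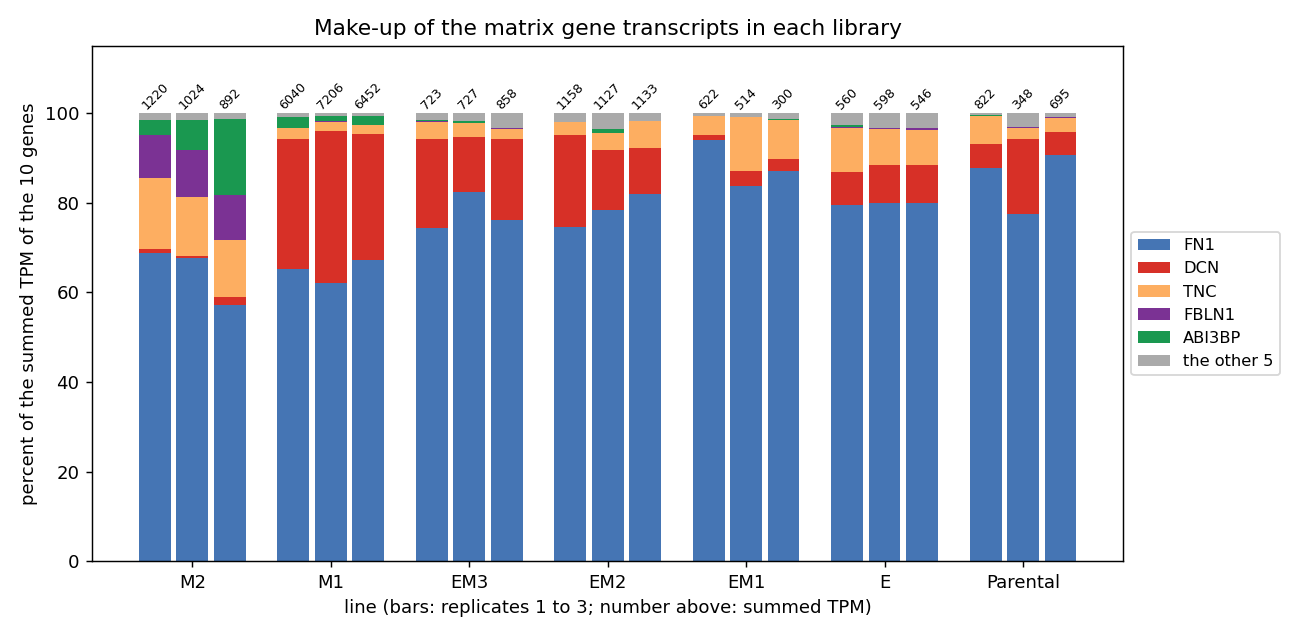
Make-up of the summed TPM of the 10 genes in each library, in percent (stacked bars, 3 replicates per line, summed TPM above each bar). M1 carries a DCN share of 28.0 to 33.9%, and M2 has the largest shares of FBLN1 and ABI3BP.

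Of the 10 genes 9 passed the low-count filter, and POSTN did not. MXRA5 passed it through M1 alone and LUM through Parental alone, the lines in which each is highest, so a high MXRA5 in M1 comes with the filter, and the counts that follow cover tested genes only. A gene is called here when edgeR's quasi-likelihood test gave a p-value under 0.05 after Benjamini-Hochberg adjustment over all 18632 genes tested in that comparison. The labels do not say whether replicates were grown separately, and the p-values then measure only the spread between these libraries, which may be technical. M2 against E had 7 of 9 called, 4 higher and 3 lower, where 51.3% of all genes tested were called (24.6% higher and 26.8% lower). M1 against E also had 7 of 9 called, all 7 higher, where 36.2% of all genes were called (18.1% higher and 18.1% lower). The 2 comparisons share the E libraries. M2 against M1 had 1 gene called higher and 5 lower, with 41.2% of all genes called (19.0% higher and 22.2% lower). Without MXRA5 and LUM, 6 of 7 were called in M2 against E (4 higher, 2 lower), 6 of 7 in M1 against E (all 6 higher) and 4 of 7 in M2 against M1 (1 higher, 3 lower).

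The EM clones had fewer calls. EM3 against E had 2 called higher and 1 lower (17.3% of all genes called, 9.36% higher and 7.96% lower). EM2 against E had 4 higher and 1 lower (13.9% called, 6.95% higher and 6.95% lower), and EM1 against E had 3 lower and 0 higher (17.9% called, 9.84% higher and 8.09% lower). Without MXRA5 and LUM the EM2 count was 3 higher and 1 lower of 7, and the EM3 and EM1 calls were unaffected. E against Parental had 1 call, FBLN1, which was higher (10.9% of all genes called, 5.02% higher and 5.93% lower). Over the genes with more than 3 summed counts in both lines, the median log2 fold change was 1.47 in M2 against E (7 genes), 1.73 in M1 against E (8 genes), -0.30 in EM3, -0.21 in EM2 and -0.97 in EM1 against E (8, 8 and 7 genes), and -0.66 in M2 against M1 (7 genes). Medians over all genes tested lay between -0.02 and 0.04 in these comparisons. With all 9 tested genes of the group kept, its median was -2.46 in M2 against M1. Against E it was then 1.47 in M2, 2.27 in M1, -0.24 in EM3, -0.19 in EM2 and -0.97 in EM1. These include folds of genes with almost no counts in 1 line, whose sizes are uncertain.

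**Figure D2:**
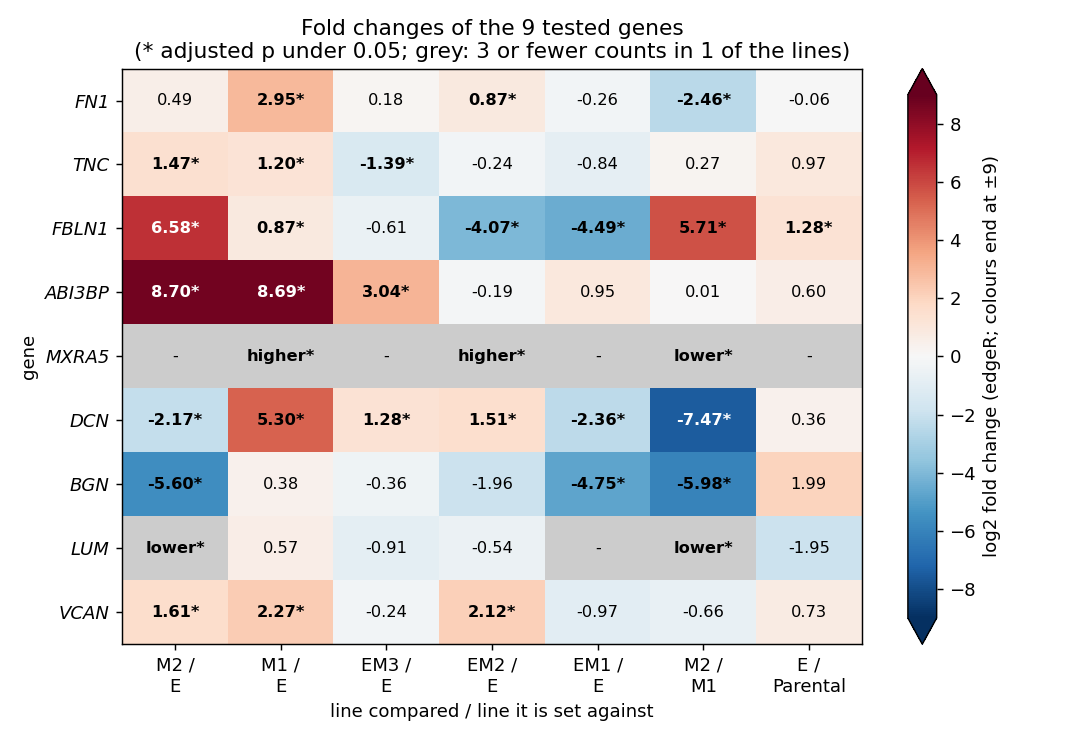
Log2 fold changes of the 9 tested genes in the 7 comparisons (columns, line compared over the line it is set against; rows, genes; bold with a star, adjusted p under 0.05 by edgeR). Grey cells have 3 or fewer counts in 1 of the lines, so that only the call is shown; ABI3BP is strongly higher in both M clones, while FBLN1 and DCN differ from E in opposite directions in M2.

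FN1, the fibril-forming ligand of the integrin pair of alpha 5 and beta 1, was the most abundant of the 10 in each library and far above the other lines in M1. It lies on chromosome 2 at 215360440 to 215436172 (hg38, minus strand, ENSG00000115414). FN1 stood at 839, 692 and 509.8 TPM in M2, and at 3942, 4470.45 and 4344 TPM in M1. The EM clones had 538, 599.7 and 653 TPM (EM3), 865, 883 and 928 TPM (EM2) and 584, 430.0 and 261 TPM (EM1). E had 446, 478 and 437 TPM and Parental 721, 269.7 and 629.5 TPM. All 3 M1 libraries lay above the other 18, FN1 ranked 20 or 21 among all genes by TPM there against 252 to 271 in E, and it took 2.10 to 2.44% of all counts in M1 against 0.284 to 0.307% in E.

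The M1 difference from E was 2.95 on the log2 scale (SE 0.305, edgeR adjusted p = 6.63e-07), with means of 4252 ± 276 TPM in M1 and 454 ± 21.8 TPM in E. FN1 was lower in M2 than in M1 (-2.46, adjusted p = 2.54e-06 by edgeR), and M2 against E gave 0.49 (SE 0.284, adjusted p = 0.157). EM2 against E gave 0.87 (SE 0.286, adjusted p = 0.049), a call that ended when any 1 of the 6 libraries was left out (adjusted p 0.0795 to 0.149) and with DESeq2 size factors (0.0506). Below M1, none of the 5 pairs of neighbouring lines in the order of FN1 levels (EM2, M2, EM3, Parental, E, EM1) was called. Lines further apart did differ by edgeR. EM2 exceeded EM1 by 1.13 (SE 0.287, adjusted p = 0.0183, 8.14% of all genes called). M2 exceeded EM1 by 0.75 (SE 0.285, adjusted p = 0.0387, 45.8% called), with libraries that overlap by TPM. Of the EM1 libraries replicate 1 lay above the E range and replicates 2 and 3 below it.

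The 250 bases before the FN1 start are shown because this is the gene that dominates the group. In RefSeq's table (GRCh38.p14, which holds 8 of the 10 genes) they contain TGACGTCA, known as the cAMP response element, at -183 to -176 relative to the start, shown in capitals. The motifs searched on both strands were 6 in number. They were TATAAA (the TATA box), TGANTCA (bound by AP-1), TGACGTCA, CACCTG (an E-box), TGTGGT (bound by RUNX factors) and GGAATG (bound by TEAD factors). TGACGTCA was present in 1.6% of 35116 promoters. A match is only a match of letters. Each window ends at RefSeq's start of the gene, which can differ from the edge of the gene position given here. The FN1 window overlaps the FN1 position given above.
FN1 promoter (chr2:215436069-215436318, minus strand): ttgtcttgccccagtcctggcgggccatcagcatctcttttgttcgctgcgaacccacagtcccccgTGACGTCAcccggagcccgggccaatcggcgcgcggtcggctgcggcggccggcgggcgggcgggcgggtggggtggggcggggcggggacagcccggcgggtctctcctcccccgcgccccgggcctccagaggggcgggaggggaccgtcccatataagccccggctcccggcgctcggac

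**Figure D3:**
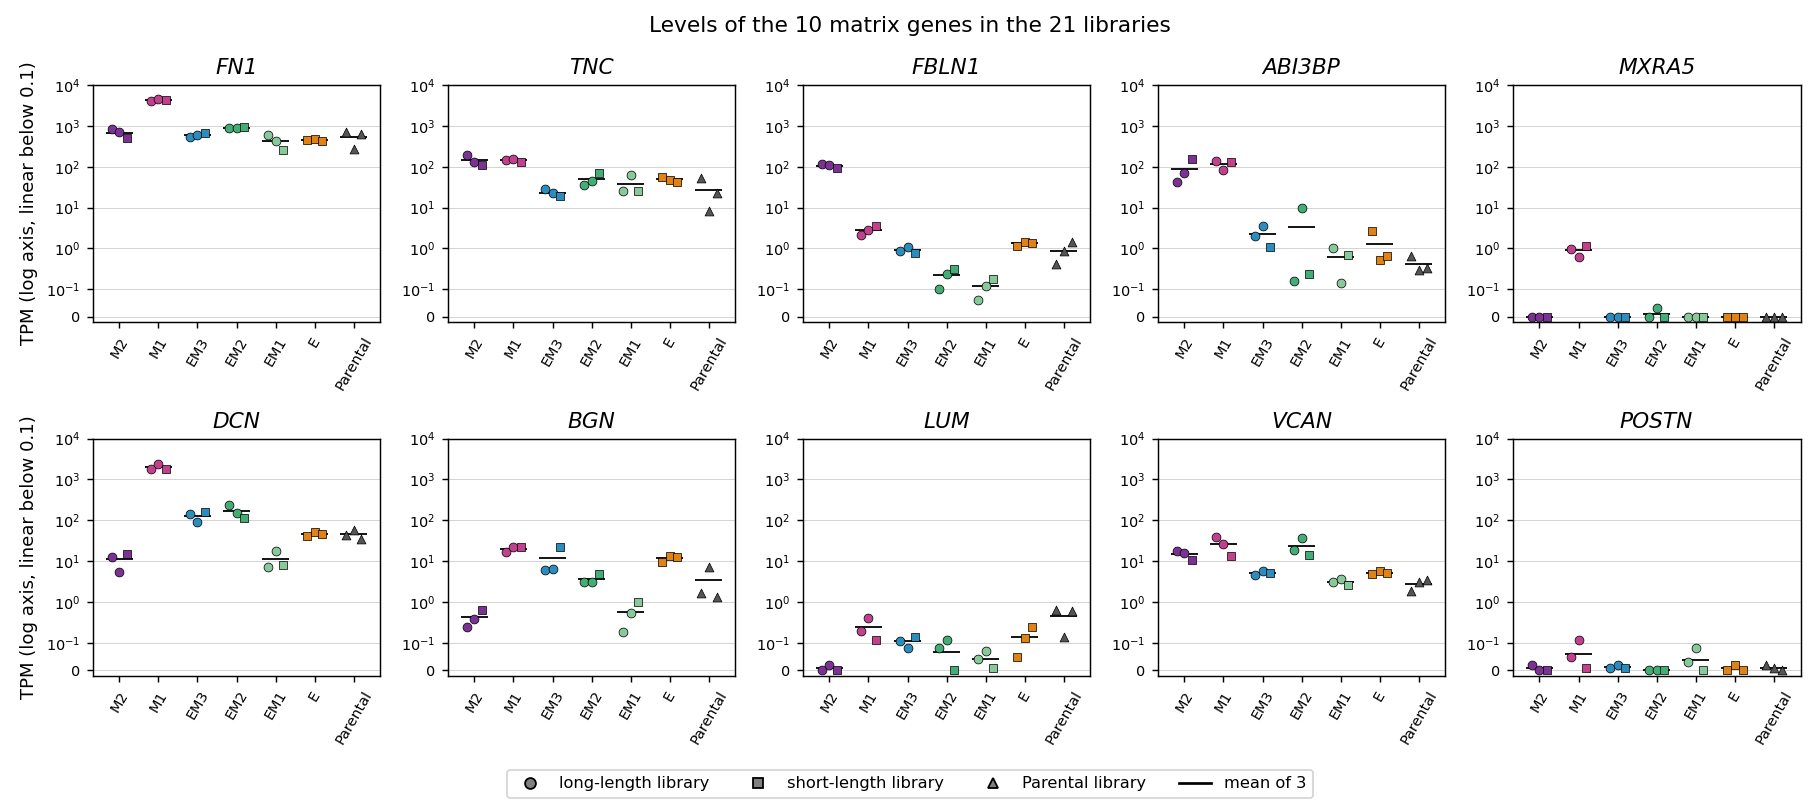
TPM of the 10 genes in the 21 libraries (log axis, linear below 0.1; points, libraries; lines, means of 3; squares and circles, short and long library sets; triangles, Parental). FN1 and DCN peak in M1, FBLN1 in M2 at 90.7 to 117 TPM, and TNC and ABI3BP are high in both M clones, while POSTN stays at or below 0.12 TPM throughout.

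TNC, which encodes the adhesion-modulating hexamer tenascin C, was high in both M clones. The gene is on chromosome 9 at 115019578 to 115118257 (minus strand, ENSG00000041982). It had 191, 133 and 113 TPM in M2 and 145, 158 and 133 TPM in M1. The EM clones had 27.8, 22.1 and 19.3 TPM (EM3), 35.0, 44.3 and 69.0 TPM (EM2) and 26.2, 61.3 and 26.1 TPM (EM1). E had 55.7, 47.5 and 43.1 TPM, and Parental 51.8, 8.25 and 22.9 TPM. Each M library lay above each of the other 15.

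TNC was higher in M2 than in E by 1.47 (SE 0.440, edgeR adjusted p = 0.00929) and in M1 than in E by 1.20 (SE 0.437, adjusted p = 0.039). The M1 call ended when any 1 of the 6 libraries was left out, with adjusted p 0.0585 to 0.122. M2 and M1 gave 0.27 between them (SE 0.431, adjusted p = 0.652). TNC was lower in EM3 than in E (-1.39, SE 0.439, adjusted p = 0.0362), a call that also ended without any 1 of the 6 libraries (0.0634 to 0.12). It ended too in the test on TPM (-1.06, adjusted p = 0.112), which is limma on log2(TPM + 1). That scale understates changes of low genes, but TNC is not low in these lines. With 0.1 added in place of 1, limma gave -1.08 (adjusted p = 0.116). EM2 against E gave -0.24 (adjusted p = 0.769), with EM2 replicate 3 above the E range and the other EM2 libraries below or inside it. In the order of levels, the step down to EM2 below the M clones was the single called step (M1 against EM2, 1.44, adjusted p = 0.0279; 17.9% of all genes were called between these lines).

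FBLN1, a calcium-binding glycoprotein of basement membranes and elastic fibres, set M2 apart. Its position is chromosome 22 at 45502238 to 45601135 (plus strand, ENSG00000077942). Its levels were 117, 108 and 90.7 TPM in M2 and 2.18, 2.87 and 3.54 TPM in M1. They were 0.85, 1.06 and 0.77 TPM in EM3, 0.10, 0.24 and 0.32 TPM in EM2 and 0.06, 0.12 and 0.18 TPM in EM1. E had 1.18, 1.47 and 1.40 TPM and Parental 0.41, 0.85 and 1.41 TPM. No other library came near the 3 of M2, and EM1 and EM2 overlapped at the bottom of the range.

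FBLN1 was 6.58 higher in M2 than in E on the log2 scale (SE 0.335, edgeR adjusted p = 2.06e-11) and 5.71 higher than in M1 (SE 0.321, adjusted p = 1e-10). M1 exceeded E by 0.87 (SE 0.273, adjusted p = 0.018), which missed the threshold without E replicate 1 (0.0697), E replicate 3 (0.0562) or M1 replicate 3 (0.0941). FBLN1 was lower than in E in EM2 (-4.07, adjusted p = 7.44e-07, edgeR) and in EM1 (-4.49, adjusted p = 5.78e-07). The sizes of these folds rest on few counts, with 2 to 10 per library in EM2 and 3 to 5 in EM1, against 104 to 131 in E. Without EM2 replicate 2 the EM2 value was -4.73. EM3, the other EM clone, gave -0.61 (adjusted p = 0.144). E exceeded Parental by 1.28 (SE 0.293, adjusted p = 0.0104), and in the test on TPM that difference was 0.35 (adjusted p = 0.239). Its promoter window, shown because FBLN1 is the gene that M2 holds above M1, contains none of the 6 motifs. The window precedes RefSeq's start but lies inside the gene position given above. The sequence before that position was therefore not searched.
FBLN1 promoter (chr22:45502633-45502882, plus strand): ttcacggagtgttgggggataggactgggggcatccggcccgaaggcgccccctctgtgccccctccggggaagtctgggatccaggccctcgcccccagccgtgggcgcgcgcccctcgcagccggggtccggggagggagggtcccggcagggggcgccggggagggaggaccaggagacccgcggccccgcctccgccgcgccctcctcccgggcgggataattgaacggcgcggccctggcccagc

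ABI3BP, a matrix glycoprotein named for its binding to the adaptor ABI3, was high in M2 and M1 alike. It maps to chromosome 3 at 100749156 to 100993515 (minus strand, ENSG00000154175). It reached 42.0, 68.6 and 151 TPM in M2 and 139, 82.5 and 127 TPM in M1. The EM clones had 2.02, 3.50 and 1.09 TPM (EM3), 0.16, 9.87 and 0.24 TPM (EM2) and 1.03, 0.14 and 0.70 TPM (EM1). E had 2.73, 0.52 and 0.67 TPM and Parental 0.65, 0.29 and 0.33 TPM. Every M library lay above every other library, by TPM and by counts.

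Low TPM values of ABI3BP rest on few counts. The 9.87 TPM of EM2 replicate 2 stand for 29 counts at a weighted transcript length of 338 bases, and the 2.73 TPM of E replicate 1 for 12 counts at 328 bases. M2 libraries held 2988 to 13057 counts and M1 libraries 5479 to 8249, against 12 to 26 in E. The difference from E was 8.70 in M2 (SE 0.859, edgeR adjusted p = 1.31e-07) and 8.69 in M1 (SE 0.859, adjusted p = 3.71e-07). Without M2 replicate 3, the highest library, the M2 value was 7.99. M2 and M1 differed by 0.01 (SE 0.595, adjusted p = 0.993).

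EM3 also exceeded E in ABI3BP, by 3.04 (SE 0.719, adjusted p = 0.00666 in edgeR), on 52 to 233 counts per library. The value was 2.32 without EM3 replicate 2 (adjusted p = 0.0474), and in the test on TPM, where the EM3 and E libraries overlap, it was 0.53 (adjusted p = 0.595). By counts EM3 also stood above EM2 (3.23, adjusted p = 0.0109, with 6.74% of all genes called), although EM2 has the higher mean TPM through its replicate 2. The promoter window is shown because the gene is far above E in both M clones. It holds TATAAA on the opposite strand, in capitals, at -236 to -231 relative to the start, and 10.7% of all promoters hold TATAAA.
ABI3BP promoter (chr3:100993422-100993671, minus strand): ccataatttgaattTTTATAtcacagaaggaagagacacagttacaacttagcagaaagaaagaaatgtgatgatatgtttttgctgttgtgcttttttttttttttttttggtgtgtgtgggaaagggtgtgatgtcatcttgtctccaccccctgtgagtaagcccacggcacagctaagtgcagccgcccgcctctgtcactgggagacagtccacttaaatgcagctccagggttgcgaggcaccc

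MXRA5, a large secreted protein with leucine-rich and immunoglobulin repeats, had more than 11 counts per library in M1 alone. It is found on chromosome X at 3308565 to 3346641 (minus strand, ENSG00000101825). M1 had 0.99, 0.62 and 1.12 TPM on 343, 265 and 527 counts. M2 held 0, 1 and 1 counts, EM3 0, 1 and 0, EM2 2, 11 and 0, EM1 1, 1 and 0, E 0 in all 3 libraries and Parental 0, 0 and 1. Set against a floor of 3 counts per library in E, M1 was at least 141.7-fold higher in library-scaled counts (edgeR adjusted p = 3.22e-06). M2 was called lower than M1 (adjusted p = 4.81e-06). MXRA5 passed the low-count filter through M1 alone, so both of these calls come with the filter. EM2 was called above E (adjusted p = 0.0379), but the 2 lines overlap and the call rests on EM2 replicate 2. It ended without that library (0.295), without any 1 of the E libraries (0.0933 to 0.107), with limma-voom (0.14) and with a term for the library set (0.0707). The window before its start is shown because M1 is the clone in which the gene was read, and it holds none of the 6 motifs.
MXRA5 promoter (chrX:3346653-3346902, minus strand): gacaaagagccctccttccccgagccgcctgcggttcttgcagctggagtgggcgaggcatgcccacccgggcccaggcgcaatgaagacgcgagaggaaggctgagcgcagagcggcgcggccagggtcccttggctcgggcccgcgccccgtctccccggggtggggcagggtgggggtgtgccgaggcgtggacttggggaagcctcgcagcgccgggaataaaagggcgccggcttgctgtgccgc

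POSTN, whose protein periostin binds integrins and collagen, had 0 to 5 counts per library and at most 0.12 TPM. The gene is on chromosome 13, at 37562583 to 37598844 (minus strand, ENSG00000133110). Of the 8 promoter windows its own held the most matches, TATAAA on both strands and TGANTCA once (6.6% of all promoters hold TGANTCA). BGN, VCAN and TNC held none of the 6 motifs. No level of POSTN could be compared at this depth.

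DCN, the decorin gene, was far higher in M1 than in any other line and differed from E in opposite directions in M2 and M1. It lies on chromosome 12 at 91140484 to 91183123 (minus strand, ENSG00000011465). It had 13.0, 5.54 and 15.4 TPM in M2 and 1752, 2443 and 1807 TPM in M1. EM3 had 143, 88.6 and 156 TPM, EM2 236, 150.2 and 117 TPM and EM1 7.33, 17.8 and 8.19 TPM. E had 40.5, 51.4 and 45.95 TPM and Parental 44.0, 58.5 and 35.3 TPM. The lines formed 4 levels without overlap, M1 at the top, then EM2 with EM3, then E with Parental, and M2 with EM1 at the bottom.

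DCN was 5.30 higher in M1 than in E (SE 0.450, edgeR adjusted p = 5.8e-08). It was lower than in E in M2 (-2.17, SE 0.393, adjusted p = 0.000161) and in EM1 (-2.36, SE 0.397, adjusted p = 0.000481), and the EM1 value was -3.05 without EM1 replicate 2. M2 against M1 gave -7.47 (adjusted p = 1.07e-09, edgeR). EM2 exceeded E by 1.51 (adjusted p = 0.0122), and missed the threshold without E replicate 1 (0.0611) or EM2 replicate 1 (0.0605). EM3 exceeded E by 1.28 (adjusted p = 0.0267), and missed it without any 1 of the E libraries or without EM3 replicate 1 or 3 (0.0671 to 0.106). Against EM1, DCN was higher in EM2 by 3.87 (adjusted p = 7.39e-06, 8.14% of all genes called) and in EM3 by 3.64 (adjusted p = 0.000172, 0.37% called). All 3 steps between the 4 levels were called, and the steps within a level were not.

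LUM and the related genes KERA and EPYC lie in a row beside DCN and did not share its level. LUM lies 28652 bases from DCN at 91102629 to 91111831 (minus strand, ENSG00000139329), with KERA and EPYC beyond it, at gaps of 44645 and 45464 bases. LUM had 0 to 0.63 TPM and at most 26 counts in any library, the highest in Parental replicate 1. M1, the line with the highest DCN, had 0.20, 0.41 and 0.12 TPM of LUM on 9, 11 and 8 counts. M2 held 1 count of LUM in all, against 3, 8 and 10 in the E libraries. M2 was called lower than E (edgeR adjusted p = 0.0105) and lower than M1 (adjusted p = 0.0042), and in the test on TPM without a filter the adjusted p was 0.315 and 0.0766. Without M2 replicate 2, which holds the 1 count, these adjusted p were 0.00636 and 0.0034, and without M2 replicate 3 0.0495 and 0.0258.

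KERA, which encodes the corneal proteoglycan keratocan, had at most 0.01 TPM. EPYC, which encodes the cartilage proteoglycan epiphycan, had its highest level in Parental, with means of 0.017 ± 0.029 TPM in M2, 0.70 ± 0.65 in M1, 0.99 ± 0.40 in EM3, 2.84 ± 0.76 in EM2, 0.94 ± 0.74 in EM1, 0.37 ± 0.085 in E and 4.26 ± 1.23 in Parental (SD, n = 3 each). EPYC was 2.60 higher in EM2 than in E (edgeR adjusted p = 0.00775) and lower in E than in Parental (-3.44, adjusted p = 0.00236). EPYC, with 1 count in all of M2, was also called lower in M2 than in E (adjusted p = 0.00046) and than in M1 (adjusted p = 0.000172), calls that ended in the test on TPM. DCN was called in the same direction as EPYC in EM2 against E, M2 against E and M2 against M1, while E against Parental gave 0.36 for DCN (adjusted p = 0.547).

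BGN, the biglycan gene, was low in M2 and EM1, as DCN was, and was not called between M1 and E. It lies on chromosome X at 153494939 to 153509554 (plus strand, ENSG00000182492). It had 0.25, 0.38 and 0.63 TPM in M2 and 17.0, 22.6 and 21.6 TPM in M1. EM3 had 6.17, 6.29 and 22.5 TPM, EM2 3.06, 3.12 and 4.80 TPM and EM1 0.19, 0.54 and 0.99 TPM. E had 9.66, 13.4 and 12.7 TPM and Parental 1.66, 7.17 and 1.32 TPM. Replicate 3 was the highest BGN library of EM3, EM2, EM1 and M2, and in EM3 it alone lay above the E range.

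BGN was lower in M2 than in E (-5.60, SE 1.02, edgeR adjusted p = 0.000166) and than in M1 (-5.98, SE 1.03, adjusted p = 0.000132). It was also lower in EM1 than in E (-4.75, SE 0.971, adjusted p = 0.00244). The M2 libraries held 3, 3 and 80 counts, and without replicate 3 the M2 values were -8.45 against E and -8.82 against M1; without EM1 replicate 3 the EM1 value was -5.85. M1 against E gave 0.38 (SE 0.813, adjusted p = 0.747), although all 3 M1 libraries exceed all 3 of E by TPM. With a term for the library set it gave 1.61 (adjusted p = 0.0178). EM3 against E gave -0.36 (adjusted p = 0.8), and 0.41 with that term (0.588). EM2 against E gave -1.96 (adjusted p = 0.138) and E against Parental 1.99 (0.131), neither called though the libraries do not overlap. Both were called with no low-count filter and with limma-voom (adjusted p = 0.0373 and 0.025). They were also called in the test on TPM (0.0325 and 0.016) and in edgeR with the compared lines only (0.0049 and 0.0456). No pair of neighbouring lines was called. BGN overlaps HAUS7 on the opposite strand, which reached 66.9 TPM in M1, and the strand setting of the counting is not given in the sources used here.

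VCAN, which encodes the large hyaluronan-binding proteoglycan versican, had higher levels in every library of M2, M1 and EM2 than in any library of the other lines. It lies on chromosome 5 at 83471465 to 83582303 (plus strand, ENSG00000038427). Levels were 17.9, 15.9 and 10.7 TPM in M2, and 39.7, 25.6 and 13.7 TPM in M1. EM3 had 4.51, 5.63 and 5.12 TPM, EM2 18.6, 36.2 and 13.9 TPM and EM1 3.07, 3.66 and 2.62 TPM. E had 4.79, 5.61 and 5.11 TPM and Parental 1.86, 3.11 and 3.43 TPM. The libraries of M2, M1 and EM2 overlap one another with replicate 3 the lowest of each.

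VCAN exceeded E by 1.61 in M2 (SE 0.380, edgeR adjusted p = 0.00175), by 2.27 in M1 (SE 0.389, adjusted p = 0.000175) and by 2.12 in EM2 (SE 0.387, adjusted p = 0.0011). M2 against M1 gave -0.66 (adjusted p = 0.167). EM1 against E gave -0.97 (adjusted p = 0.0822), which passed the threshold when a set term was added (-1.43, adjusted p = 0.00589). In the order of levels the step between M2 and E was the single called one. The EM clones differed among themselves: EM2 exceeded EM1 by 3.09 (SE 0.403, adjusted p = 5.71e-05), and EM3 was lower than EM2 (-2.35, adjusted p = 0.000783).

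Over all 54 pairs of neighbouring lines, 6 for each tested gene, 13 were called. FBLN1, DCN and ABI3BP had 3 each, FN1, TNC, VCAN and MXRA5 had 1 each, and BGN and LUM had 0 of 6. For FN1 and DCN the highest line was M1 and the step below it was called. The MXRA5 step below M1 was called too, but MXRA5 passed the low-count filter through M1 alone, so that call comes with the filter. For FBLN1 the highest line was M2, and the step to M1 below it was called. The share of all genes called in the line pairs not yet named was 5.5% in EM2 against Parental, 45.3% in M2 against EM2 and 46.0% in M2 against Parental, which hold called steps. It was 45.1% in M2 against EM3, 45.8% in M2 against EM1, 27.1% in M1 against Parental, 3.7% in EM3 against Parental and 2.01% in EM1 against Parental, which hold none. Across the 21 libraries, Pearson's r of log2(TPM + 1) was 0.812 between FN1 and DCN, 0.796 between DCN and BGN and 0.781 between TNC and ABI3BP, against -0.271 between DCN and FBLN1. The libraries of a line are not independent points, so these describe the pattern and carry no test.

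The same measure over 12808 genes gave the closest companions of each gene. For FN1 they were SNAP25 (r = 0.943) and EHD3 (0.932), and for DCN APLP1 (0.942) and RAB13 (0.926), all 4 highest in M1. BGN was closest to C1R (0.941) and C1S (0.921), which encode proteases of the complement system. VCAN was closest to NRN1 (0.922) and DOCK11 (0.916), TNC to SYNJ2 (0.921) and EIF3C (0.873), and ABI3BP to ARHGAP22 (0.952) and HOXB7 (0.951). FBLN1 was closest to CACNA2D3 (0.981), a calcium channel subunit at 6.82 TPM in M2 and 0.61 TPM in the next line, and to SPANXC (0.978). EIF3C and SPANXC have near-identical copies, so their counts are uncertain.

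Genes related to the 10 were counted in 8 lists with 123 genes, 102 of them tested. Against E, 20 were called higher and 42 lower in M2, and 34 higher and 22 lower in M1. The EM clones had 10 higher and 20 lower (EM3), 13 and 16 (EM2) and 8 and 23 (EM1). Over all genes 9.36% were higher and 7.96% lower in EM3, 6.95% each way in EM2, and 9.84% and 8.09% in EM1. E against Parental had 18 higher and 4 lower (5.02% and 5.93% over all genes), and M2 against M1 18 higher and 42 lower (19.0% and 22.2%). In M2 against E the largest share of lower calls was in the fibulins, elastin and microfibril genes, with 13 of 19 lower and 3 higher, where 26.8% of all genes were called lower and 24.6% higher. In M1 against E the shares over all genes were 18.1% in each direction, and the counts of each list stand against these. FBLN1, of the fibulin family, was higher in M2 than in E.

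**Figure D4:**
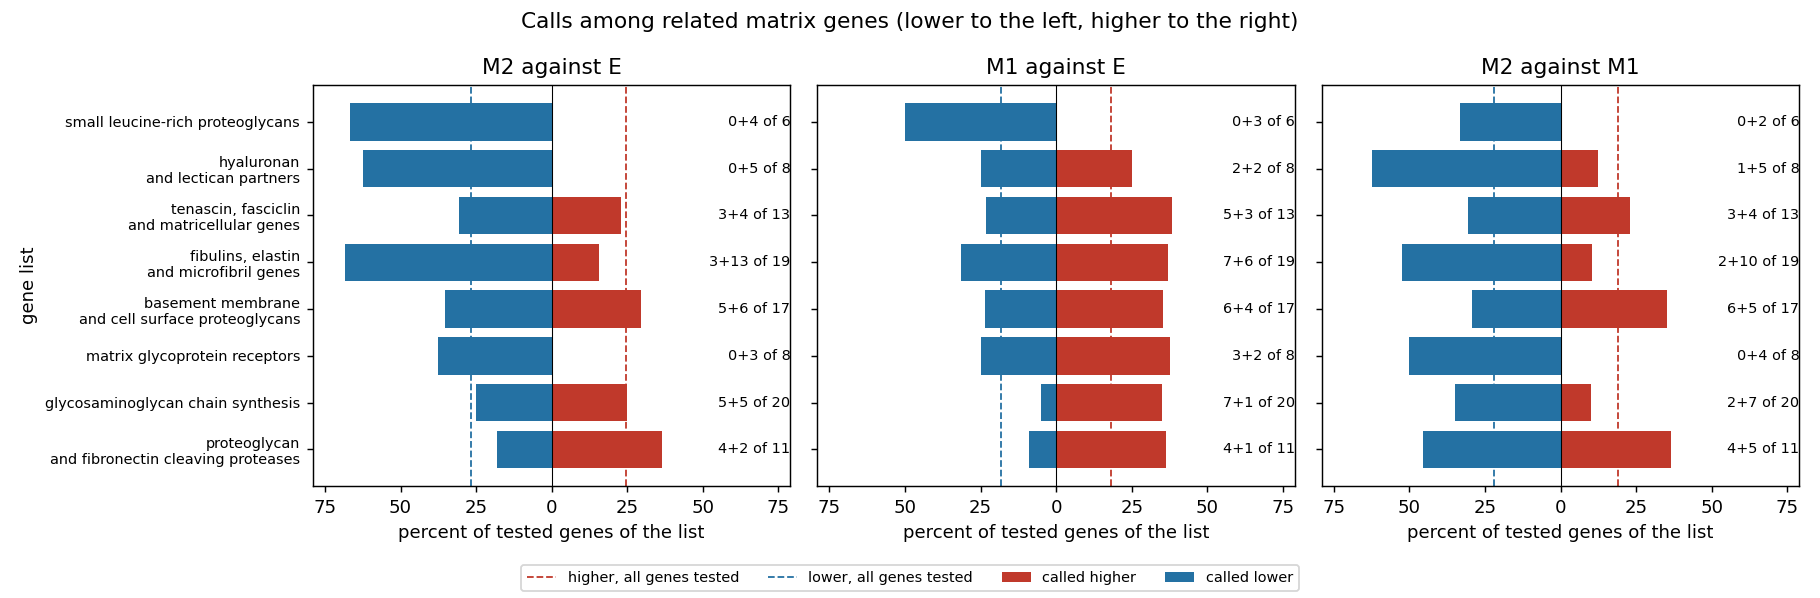
Percent of the tested genes of 8 related lists called lower (left) and higher (right) in 3 comparisons, with the counts at the right (higher + lower of tested) and dashed lines for all genes tested. In M2 against E 13 of 19 fibulin, elastin and microfibril genes were lower, while in M1 against E 7 were higher and 6 lower.

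Among the fibulin and microfibril genes, FBLN5, which organises elastic fibres, was at 25.9 ± 13.5 TPM in M2 and 0.29 ± 0.16 TPM in M1 (SD, n = 3 each; log2 7.09, edgeR adjusted p = 1.22e-08). The fibrillin gene FBN1 was 4.36 higher in M1 than in E (29.8 ± 5.19 TPM in M1, 1.82 ± 0.35 TPM in E, adjusted p = 4.01e-06). LTBP1, which anchors latent TGF-beta, was 4.51 higher in M1 (41.3 ± 8.94 TPM in M1, 1.48 ± 0.45 TPM in E, adjusted p = 1.48e-09). FBN1 was also called higher than in E in EM2 (1.99, edgeR adjusted p = 0.00862) and EM3 (2.58, 0.00123). LTBP1 was also called higher than in E in EM2 (2.86, adjusted p = 1.24e-06). EMILIN2, an elastin microfibril glycoprotein, was lower in M2 than in E (-5.83, adjusted p = 2.52e-08; 0.040 ± 0.040 TPM in M2, 6.26 ± 0.095 TPM in E), with -6.43 when M2 replicate 3 was left out. FBLN5 and FBN1 are both parts of elastic fibres.

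Of the tenascin, fasciclin and matricellular genes, 3 of 13 were called higher and 4 lower in M2, and 5 higher and 3 lower in M1, against E. The M2 shares are near those over all genes, 24.6% higher and 26.8% lower, and in M1 18.1% of all genes were called in each direction. SPARC, a collagen-binding counter-adhesive protein, was 8.58 higher in M2 than in E (389.9 ± 241 TPM in M2, 1.10 ± 0.18 TPM in E, edgeR adjusted p = 3.17e-08) and 4.91 higher in M1 (33.1 ± 16.4 TPM, adjusted p = 1.26e-05). CCN4 was 7.44 higher in M2 (17.0 ± 2.11 TPM in M2, 0.13 ± 0.072 TPM in E, adjusted p = 2.07e-09) and 6.10 higher in M1 (6.81 ± 0.53 TPM, adjusted p = 4.74e-08). Without M2 replicate 1 the SPARC value in M2 was 7.99.

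Partners of hyaluronan and versican had 0 of 8 called higher and 5 lower in M2 against E, and 2 higher and 2 lower in M1. Over all genes 24.6% were higher and 26.8% lower in M2, and 18.1% in each direction in M1. HAS2, which makes hyaluronan, was at 0.087 ± 0.076 TPM in M2, 60.9 ± 18.7 TPM in M1 and 11.05 ± 1.53 TPM in E. M2 against E gave -7.41 (edgeR adjusted p = 3.62e-05), and -8.33 without M2 replicate 1. CD44, the hyaluronan receptor, was 2.19 higher in M1 than in E (2303 ± 420.03 TPM in M1, 491 ± 43.1 TPM in E, adjusted p = 3.28e-05) and lower in M2 than in M1 (298 ± 51.3 TPM in M2, -2.80, adjusted p = 1.48e-06). CD44 was also called higher than in E in EM1 (1.44, adjusted p = 0.0036), EM2 (1.38, 0.00556) and EM3 (1.18, 0.0123). Its mean in Parental was 1177 TPM.

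Small leucine-rich proteoglycans other than the 3 named genes had 6 of 12 tested, with 4 called lower and 0 higher in M2 and 3 lower and 0 higher in M1, against E. Of all genes 26.8% were called lower in M2 and 18.1% in M1. Basement membrane and cell surface proteoglycans had 5 of 17 higher and 6 lower in M2, near the 24.6% and 26.8% of all genes, and 6 higher and 4 lower in M1, against 18.1% of all genes in each direction. SRGN, the proteoglycan of secretory granules, was 9.85 higher in M2 than in E (161 ± 20.0 TPM in M2, 0.16 ± 0.031 TPM in E, edgeR adjusted p = 2.46e-13) and 6.66 higher in M1 (19.8 ± 5.34 TPM, adjusted p = 7.34e-11). NID2, which links laminin to collagen IV, was 5.72 higher in M1 than in E (124 ± 13.7 TPM in M1, 1.83 ± 0.53 TPM in E, adjusted p = 7.81e-09) and stood at 0.077 ± 0.0058 TPM in M2 (M2 against M1, -11.12, adjusted p = 2.13e-11). NID2 was also called higher than in E in EM1 (2.92, adjusted p = 2.78e-05), EM2 (3.10, 1.61e-05) and EM3 (3.75, 2.8e-06).

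The enzymes that build the sugar chains had 5 of 20 called higher and 5 lower in M2 and 7 higher and 1 lower in M1, against E. The M2 counts match the 24.6% higher and 26.8% lower over all genes, and in M1 the share over all genes was 18.1% in each direction. XYLT1, which starts the chain on the core protein, was 3.44 higher in M2 (6.37 ± 3.47 TPM in M2, 0.43 ± 0.020 TPM in E, edgeR adjusted p = 3.61e-07) and 2.99 higher in M1 (4.66 ± 1.39 TPM, adjusted p = 3.97e-06). CSGALNACT1, which commits the chain to chondroitin sulfate, was 3.16 higher in M1 (49.3 ± 6.14 TPM in M1, 5.51 ± 0.92 TPM in E, adjusted p = 4.82e-06) and lower in M2 than in E (0.050 ± 0.078 TPM in M2, -6.70, adjusted p = 4.24e-09), with -9.03 without M2 replicate 1 and -6.10 without M2 replicate 3.

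The integrin list had 0 of 8 higher and 3 lower in M2 and 3 higher and 2 lower in M1, against E. Over all genes 24.6% were higher and 26.8% lower in M2, and 18.1% in each direction in M1. ITGB1, the beta chain of the fibronectin receptor, was 1.32 higher in M1 than in E (862 ± 154 TPM in M1, 352 ± 11.5 TPM in E, edgeR adjusted p = 0.000817). It was also called higher than in E in EM2 (0.84, adjusted p = 0.0393). The list of proteoglycan and fibronectin cleaving proteases had 4 of 11 higher and 2 lower in M2 and 4 higher and 1 lower in M1, set against the same shares over all genes. That list also holds genes of procollagen processing, among them BMP1 and the enhancer gene PCOLCE, which is not a protease. ADAMTS12 was 8.49 higher in M2 than in E (5.22 ± 1.43 TPM in M2, 0.013 ± 0.015 TPM in E, adjusted p = 7.79e-09), and ADAMTS5, a versican- and aggrecan-cleaving enzyme, was at 2.44 ± 1.502 TPM in M1 and 0.04 ± 0.017 TPM in E (5.60, adjusted p = 0.00233; 4.92 without M1 replicate 2).

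The transcript length that RSEM weighted by abundance moved with the library sets. For FN1 it was 4803 to 5282 bases in the 8 short-set libraries and 5776 to 6332 bases in the 10 long-set libraries, without overlap. For VCAN it was 4143 to 4607 bases in the short set and 4081 to 6738 bases in the long set, and for TNC 3193 to 3635 and 3000 to 4159 bases. TPM divides by this length, so part of any difference in TPM between the sets can be a difference in assigned length. Whether the isoforms differ was not tested.

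**Figure D5:**
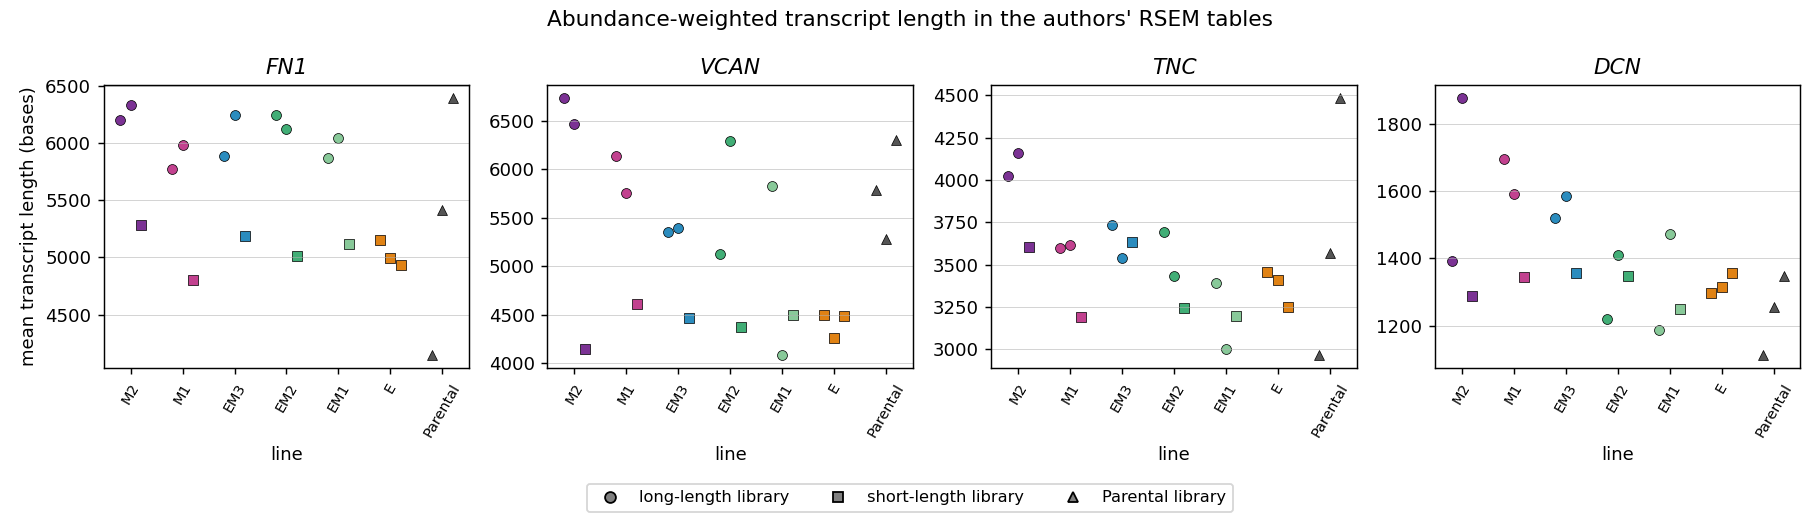
Abundance-weighted transcript length in bases for FN1, VCAN, TNC and DCN in each library (points; squares, short set; circles, long set; triangles, Parental). For FN1 every short-set library lies below every long-set one, within M2, M1 and all 3 EM clones.

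Markers of other cell types moved with some of these results. The 6 breast epithelial markers summed to 519 to 759 TPM in M2, 364 to 577 in M1, 1128 to 2993 in the EM clones, 5797 to 6443 in E and 1607 to 2541 in Parental, and 2 of the 6 averaged 1 TPM or more in M2, 4 in M1 and 6 in every other line. EPCAM and CDH1, defining genes of epithelial cells, were at 0.13 ± 0.045 and 0.053 ± 0.050 TPM in M2 and 1.98 ± 1.70 and 0.080 ± 0.036 TPM in M1, against 168 ± 4.01 and 108 ± 17.3 TPM in E, while KRT8 was at 525 ± 99.5 TPM in M2 and 363 ± 103 TPM in M1, against 4568 ± 361 TPM in E (SD, n = 3 each). The 8 fibroblast and stroma markers summed to 134 to 193 TPM in M2, 657 to 883 in M1, 20.9 to 101 in the EM clones, 13.7 to 14.4 in E and 10.1 to 33.1 in Parental, with 4 of the 8 at a mean of 1 TPM or more in M2 and M1 and 2 in every other line. In M1 this was mostly COL1A1 (659 ± 121 TPM) and FAP (67.0 ± 30.1 TPM), and in M2 PDPN (129 ± 32.7 TPM). The fibroblast gene THY1 was at most 0.33 TPM in any library, and COL1A2 averaged 0.0033 TPM in M2 and 3.72 ± 1.07 TPM in M1.

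The 7 blood and immune markers summed to 16.2 to 42.7 TPM in M2, 157 to 228 in M1, 69.3 to 172 in the EM clones, 125 to 129 in E and 55.9 to 81.7 in Parental. These sums rest on few genes: 1 of the 7 averaged 1 TPM or more in M2 and 2 in every other line. In each line 1 or 2 of the 7 had no count at all. The endothelial and adipocyte lists summed to at most 2.92 TPM in any library, cartilage and bone to at most 57.8, and ESR1 with PGR to at most 2.29. The part of these markers in the levels of the 10 genes was not tested.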

How the data were processed

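Single-end messenger RNA libraries, 3 for each of 7 lines, made up the 21 samples. The authors' pipeline, per the submitters' processing notes, held bcl2fastq 2.20.0.422, cutadapt 2.4, STAR 2.7.2b, RSEM 1.3.2 and hg38; the annotation release and strand setting are not given in the sources used here. Per the file headers, the deposited values are expected counts, TPM and transcript lengths per gene. The expected count is RSEM's estimate of reads per gene (7.4 to 8.6% of values in a library not whole), and the authors' TPM divides by effective length and library. Positions are from GENCODE 29, which holds 58542 of the 60617 genes. The members and lists were chosen with earlier results of these data known.

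Expected counts were rounded and tested with edgeR 4.0.16 in R 4.3.3 (robust quasi-likelihood, TMM, filter by line, 18632 genes) in 1 fit of 21 libraries with 14 residual degrees of freedom, checked on simulated data. The simulation was modelled on the M1 and E libraries alone, with less spread than in this fit and no library sets. It is therefore an easier case than these data. TMM factors lay between 0.92 and 1.13, and the fit's common biological coefficient of variation was 0.34. SE is the size of the log2 fold change over the root of F. Named genes are the 10 members, up to 3 genes per list and comparison with the largest called change, no overlap between libraries and a mean CPM of at least 1, and 2 companions per member with 1 TPM or more in a line; of the list genes, those printed were picked with their values in view, with preference for calls that the alternatives left in place.

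The alternatives comprised no filter, a filter at 1 CPM on average, DESeq2 1.42.0 (its size factors, and its Wald test), limma 3.58.1 (voom; trend on log2(TPM + 1) or + 0.1, with genes at a mean TPM of at least 1 or no filter), the compared lines alone, the replicate number as a block, the library set as a term in the 18 clone libraries, and each library left out in turn. Same-number libraries did not deviate together in all pairs: 34 of 63 correlated above 0.1 (median 0.128), and in 0 of the 7 comparisons did all 3. Replicate 3 of M2, M1, EM3, EM2 and EM1, their short-set library, did deviate together. Its correlations between these clones ran from 0.33 (M2 with EM2) to 0.791 (EM3 with EM1). With the set term M2 against M1 had 9984 calls over all genes, against 7674. The split into library sets was known from earlier results.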

Additional observations from a re-analysis of the deposited data

How the results depend on the processing

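Of 1010 refitted values of the 9 genes, 912 kept their direction and side of the threshold, 48 lost the call, 23 gained one and 27, none of them called, changed sign. Of 2043 for the other named genes, 1915 kept both and 128 lost the call. List genes were named only where already called in these data, so none could gain a call. The large share kept comes with that choice. The number of the 10 genes called in M2 against E, M1 against E and M2 against M1, and of called neighbour pairs, stayed within 1.5 times of 7, 7, 6 and 13. EM1 against E had 5 calls with no low-count filter, against 3. EM2 against E had 3 calls on TPM with no filter, and 2 to 3 without E replicate 1, 2 or 3 or EM2 replicate 1 or 2, against 5. EM3 against E had 1 call in each test on TPM and 1 without an E library or EM3 replicate 1 or 3, against 3. E against Parental, with 1 call, had 4 with no filter, 2 with limma-voom, 4 with the compared lines only and 2 without Parental replicate 1. The cause of these shifts was not tested. Over all genes those 5 libraries left 1556 to 1718 calls in EM2 against E, against 2588, while without EM2 replicate 3 there were 2760. The compared lines alone gave 4267 calls there, 5904 against 3227 in EM3 against E, 5238 against 2040 in E against Parental and 5046 against 7674 in M2 against M1. E against Parental had 3452 calls with no filter and 762 to 1653 with a library left out; EM1 against E had 1812 to 2036, against 3341, without an E library or EM1 replicate 1 or 2 and 4640 without EM1 replicate 3, and EM3 against E had 1950 to 2093 without an E library or EM3 replicate 1 or 2 and 3310 without EM3 replicate 3.

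With the replicate block the numbers called were 7 in M2 and M1, 3 in EM3, 5 in EM2 and 4 in EM1 against E, 6 in M2 against M1, 1 in E against Parental and 14 neighbour pairs; the added gene in EM1 was VCAN (adjusted p = 0.0455 in edgeR). Same-number libraries all correlated above 0.1 in 4 line pairs, 3 of which are neighbours in the order of some gene (M2 with EM2, M2 with EM3, EM3 with EM2), and in those 3 the block changed none of the 10 neighbour calls. Over all genes the block gave 3716 calls in E against Parental, against 2040.

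Sign changes were these, as log2 values. FN1 in E against Parental was 0.028 with no filter, 0.039 with limma-voom, and -0.353 to 0.122 with a library left out. BGN in EM3 against E was 0.41 with the set term, LUM in EM2 against E -2.028 to 0.053 with a library left out, and TNC in M2 against M1 -0.028 on TPM. ABI3BP in EM1 against E was -0.422 (pseudocount 1) and -0.88 (0.1) on TPM and -0.083 to 1.309 with a library left out. In EM2 against E it was 0.241 on TPM and -1.684 to 0.26 with a library left out. In M2 against M1 it was -0.008 with the stricter filter, -0.162 with limma-voom, -0.573 and -0.581 on TPM, -0.017 with the block and -0.701 to 0.331 with a library left out. On TPM the median of all genes shifted by 0.20 to 0.28 for clones against E and by -0.13 for E against Parental, and higher calls were 59.5 to 80.0% of calls for clones against E, against 47.8 to 54.9% by counts.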
